A study of Mus musculus with 6 samples.

Results

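The guidance genes described here are the ephrins and their Eph receptors, the semaphorins with their plexin and neuropilin receptors, the Slits with their Robo receptors, and the netrins with their Unc5 receptors. They were matched by gene symbol alone, from the names of these families, a choice made with earlier results of these data known. In the authors' deposited table, 56 of the 16701 genes matched. Of these, 54 encode ligands or receptors of the 4 families. The other matches are Unc5cl, which encodes a relative of the Unc5 receptors, and Unc50, a Golgi and membrane trafficking gene known from the worm Caenorhabditis elegans that shares the name but not the family. RefSeq lists 71 protein-coding mouse genes whose symbols match, and the 15 with no row, Dcc among them, were not analysed here. The lowest mean level in the table is 8.35 normalized counts, so every count below is over listed genes. RNA-seq was run on mammary luminal epithelium, the cells that line ducts and make milk, in 3 libraries from Ocln knockout (Ocln-/-) mice and 3 from wild-type (WT) control mice, all at 7 weeks of age. Ocln encodes occludin, a transmembrane component of tight junctions, and the series asks how it acts with the endosome protein FIP5 at the mitotic spindle. No treatment is labelled. How Ocln was deleted, the strain background, how the cells were isolated and whether the libraries are from separate mice are not given in these sources, so p-values measure the spread between these libraries, which may be technical.

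Guidance molecules were first described in axons and also act in epithelia and vessels. Eph receptors are tyrosine kinases that bind ephrins on the neighbouring cell, and signals run into both cells. Ephrin-A ligands are held by a lipid anchor and mostly bind EphA receptors, while ephrin-B ligands span the membrane and mostly bind EphB receptors, EphA4 being a receptor for both. Secreted class 3 semaphorins act through a neuropilin joined to a plexin, and the membrane-bound classes mostly bind plexins directly. Slits are large secreted proteins read by Robo receptors, and netrins are laminin-like secreted proteins read by Dcc, neogenin and the Unc5 receptors. In the mammary gland, netrin-1 and Slit2 are known for holding the cell layers of the growing duct together, and EphA2 for branching.

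In Ocln knockout cells, 4 guidance genes rose and 0 fell at an adjusted p under 0.05. These were Epha4, the ephrin ligand gene Efna5, the netrin gene Ntn1 and the secreted semaphorin gene Sema3c. That is 7.14 percent of the 56 listed guidance genes, against 1.08 percent of all genes called in the table (0.808 percent higher and 0.275 percent lower). By the authors' DESeq2 test at an unadjusted p under 0.05, 10 guidance genes were higher and 1 was lower, which is 17.9 and 1.79 percent of them, against 5.23 and 3.83 percent of all genes (9.07 percent in either direction). A total of 38 of the 56 had a positive log2 fold change, or 67.9 percent, against 48.8 percent of all genes. The median log2 fold change was 0.09 over the guidance genes and -0.01 over all genes. Changes ran from -1.35 for Unc5c to 1.56 for Epha4 in the authors' deposited table. These counts describe the list, and no test set it against other lists. The table holds no values per library, so the overlap of the genotypes cannot be shown, and the error given with each change is the authors' standard error (SE).

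**Figure D1:**
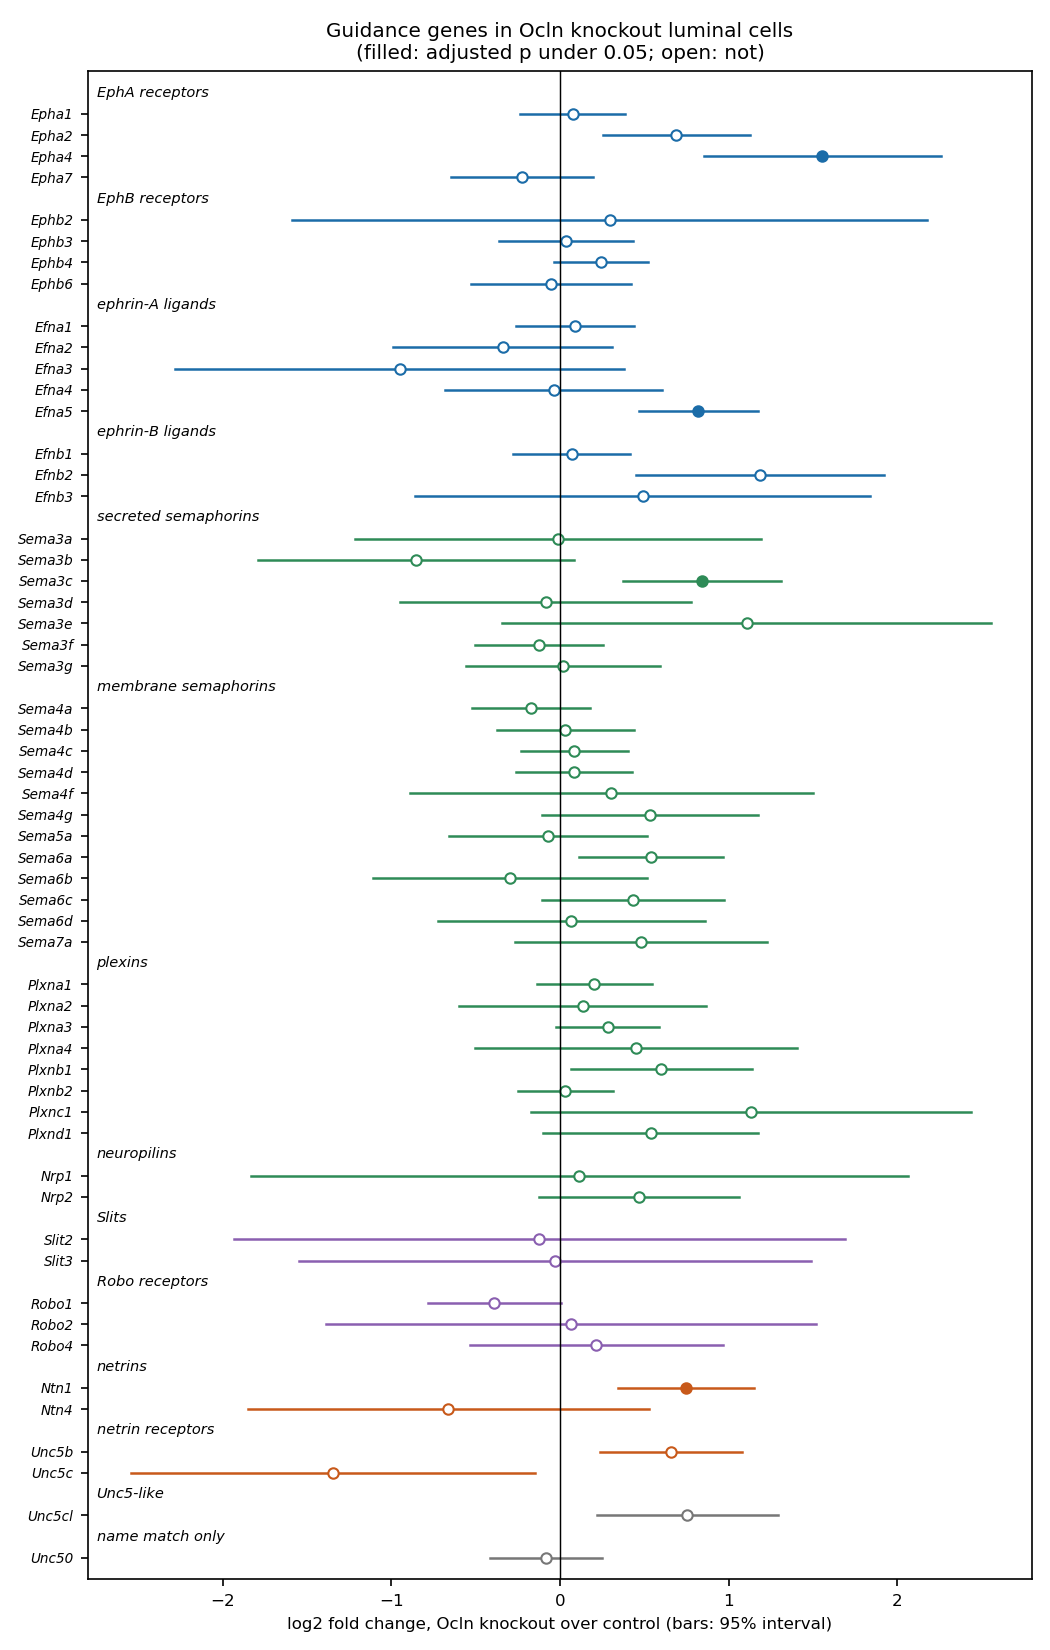
Log2 fold change of each of the 56 guidance genes, Ocln knockout over control, grouped by role, with 95% intervals (1.96 SE on either side) and filled circles for an adjusted p under 0.05. The 4 filled circles, Epha4, Efna5, Sema3c and Ntn1, lie to the right of 0, and the widest intervals near 0 belong to Nrp1, Ephb2 and Slit2.

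The targeted gene and the cell markers bear on how these values are read. Ocln stood at -1.15 ± 0.16 (SE) on the log2 scale per the authors' deposited table, with a DESeq2 adjusted p of 4.36e-09. The knockout libraries thus held 44.9 percent of the control message, with a 95% interval of 35.9 to 56.2 percent, and the table does not show which exons it came from. The 11 luminal progenitor markers and the 9 measured hormone-sensing luminal markers had mean levels of 2578 to 72086 normalized counts. Of 12 basal and myoepithelial markers the highest mean level was 665 normalized counts, and of 9 fibroblast markers 387. Marker levels are not divided by transcript length, which limits their comparison between genes. The basal markers had a median log2 fold change of -0.10 with 4 of 12 positive, and the fibroblast markers 0.11 with 6 of 9 positive. Of the 11 luminal progenitor markers, 4 rose (Ltf, Trf, Mfge8 and Wfdc18) and 1 fell (Csn3), with a median log2 fold change of 0.72. These calls make up 45.5 percent of that list, beside 1.08 percent of all genes. Like the other lists, it was chosen with earlier results of these data known, so this contrast is a description and not a test. Kit, Elf5, Ehf, Aldh1a3, Cd14 and Lcn2 missed the threshold, each with a positive estimate. At an unadjusted DESeq2 p under 0.05, 7 of the 11 were higher and 1 was lower. Of the 9 hormone-sensing markers, 0 passed or had an unadjusted DESeq2 p under 0.05, with a median of -0.40. For a list this short 0 is not unusual, since 1.08 percent of all genes passed and 9.07 percent had such a p. Markers of other cells were called in 3 cases, the myoepithelial gene Oxtr (-1.55 ± 0.38, adjusted p = 0.00733) and the fibroblast gene Dcn (-1.36 ± 0.35, adjusted p = 0.0134) among the falls and the myeloid gene S100a8 (2.12 ± 0.53, adjusted p = 0.00935) among the rises, all by DESeq2 in the authors' deposited table. Of 12 macrophage and myeloid markers, 11 had a positive log2 fold change and 3 an unadjusted DESeq2 p under 0.05, with a median of 0.49. All 3 were higher, or 25 percent of the list, beside 5.23 percent of all genes. Of 8 measured lymphocyte markers, 7 were positive, with a median of 1.32. Among 12 endothelial markers 0 were called by DESeq2, with 0 at an unadjusted p under 0.05 as well, and their median log2 fold change was 0.02. Of 6 pericyte, 6 Schwann cell and nerve, 2 adipocyte and 8 lymphocyte markers measured, 0 were called by DESeq2, and 2 had an unadjusted p under 0.05. Among all these other lists the highest mean levels were 7131 normalized counts for Notch3 and 4866 for Sox10, which luminal cells are known to express too. The table has no level per genotype, so summed marker levels of knockout and control cannot be set side by side. In bulk RNA fewer cells of a type and less RNA per cell cannot be told apart. The part of the luminal and immune markers' differences in the guidance results was not tested.

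The starts of called guidance genes are shown to give the sequence context of the genes that rose. RefSeq promoters were matched for 3 of the 4 called genes, Epha4, Efna5 and Sema3c. That of Sema3c lies inside the gene as GENCODE places it and is not shown. Each run is the 250 bases before the RefSeq transcription start on the gene's strand (build GRCm38.p6), 5′ to 3′, and capitals mark the GC box GGGCGG, a motif bound by Sp and KLF factors, read on both strands.
Epha4, chr1:77515089-77515338, minus strand: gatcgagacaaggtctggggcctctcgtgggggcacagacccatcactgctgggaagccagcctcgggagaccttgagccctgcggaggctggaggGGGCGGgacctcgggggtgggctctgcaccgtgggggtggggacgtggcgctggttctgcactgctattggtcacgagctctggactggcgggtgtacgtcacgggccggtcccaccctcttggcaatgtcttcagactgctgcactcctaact
Efna5, chr17:62881318-62881567, minus strand: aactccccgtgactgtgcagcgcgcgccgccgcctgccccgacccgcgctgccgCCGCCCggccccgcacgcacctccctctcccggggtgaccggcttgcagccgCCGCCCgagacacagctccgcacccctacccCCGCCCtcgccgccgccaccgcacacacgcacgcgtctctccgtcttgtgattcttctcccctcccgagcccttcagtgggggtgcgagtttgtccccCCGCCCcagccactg
The GC box occurred 1 time before Epha4 and 4 times before Efna5, and 32.7 percent of all 32851 RefSeq windows of this length hold at least 1. GC content was 66.0 percent before Epha4 and 74.8 percent before Efna5, against a median of 52.4 percent. The 32851 windows outnumber the 16701 listed genes and were not limited to them. Whether these values set apart genes that rose was not tested. The ETS core CCGGAAG (in 6.91 percent of all windows), the E-box CAGCTG (13.0 percent) and the TATA box TATAAA (12.4 percent) were searched on both strands and had 0 matches in these 2 windows, so no capitals overlap another motif. A match is a description of letters, not a site in use.

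Among the Eph receptors, 1 of 8 listed genes rose. Epha4 (ENSMUSG00000026235.14) is encoded on chromosome 1 between positions 77367185 and 77515088 (GRCm38, minus strand). Its log2 fold change was 1.56 ± 0.36 (SE) per the authors' deposited table, with 613 normalized counts on average and a DESeq2 adjusted p of 0.00317. The knockout level was thus 294 percent of the control level, with a 95% interval of 181 to 478 percent. Epha2, the receptor known from mammary branching, had an estimate of 0.69 ± 0.22 (log2) per the authors' deposited table, short of the threshold (DESeq2 adjusted p = 0.112, unadjusted p = 0.00202). Its interval was 119 to 219 percent of control, before any adjustment for the number of genes, and its mean level of 6058 normalized counts was the highest of the Eph genes, also per transcript length. Epha1 (0.08 ± 0.16) and Epha7 (-0.22 ± 0.21) missed the threshold in the authors' deposited table. Their intervals, 85.0 to 131 percent of control for Epha1 and 64.0 to 115 percent for Epha7, exclude a change as large as the estimate for Epha4.

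The EphB receptors gave 0 calls, and 0 of 4 had an unadjusted DESeq2 p under 0.05. The shares of all genes were 1.08 and 9.07 percent, so 0 of 4 does not set these receptors apart. Ephb4, best known from veins and the most abundant EphB gene per transcript length here, had an estimate of 0.24 ± 0.14 (log2) per the authors' deposited table (DESeq2 adjusted p = 0.645), with an interval of 97.7 to 143 percent of control. Ephb3 (0.04 ± 0.20), a receptor known from the intestinal crypt, and Ephb6 (-0.05 ± 0.24), whose kinase domain is inactive, had estimates near 0 in the authors' deposited table, with wider errors than Ephb4. Ephb2, by contrast, had an estimate of 0.30 ± 0.96 in the authors' deposited table, and its interval of 33.3 to 453 percent of control leaves its direction undetermined.

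Of 8 ephrin genes, 1 rose. Efna5, which encodes the lipid-anchored ligand ephrin-A5, lies on chromosome 17 between positions 62604184 and 62881317 (minus strand). Its log2 fold change was 0.82 ± 0.18 (SE) per the authors' deposited table, with 1314 normalized counts on average and a DESeq2 adjusted p of 0.00151. That is 177 percent of control, with an interval of 138 to 226 percent, and among the guidance genes it had the smallest adjusted p. Efna1, the ephrin-A gene with the highest level per transcript length and a partner of EphA2, had 0.09 ± 0.18 in the authors' deposited table (DESeq2 adjusted p = 0.958). Efna2 (-0.34 ± 0.33), Efna3 (-0.95 ± 0.68) and Efna4 (-0.04 ± 0.33) missed the threshold in the authors' deposited table, and Efna3 stood at a mean level of just 12.3 normalized counts.

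The ephrin-B gene Efnb2 was the guidance gene next in line after the called ones. Its ligand binds EphB4 and also EphA4. The log2 fold change of Efnb2 was 1.19 ± 0.37 in the authors' deposited table (DESeq2 adjusted p = 0.0946, unadjusted p = 0.00152), and the authors' own call for it was Up. Their calls matched an unadjusted p under 0.05 together with a change beyond about 1.01 on the log2 scale in either direction. By that rule 2.79 percent of all genes are called, 1.8 percent Up and 0.988 percent Down, and 3 guidance genes, 2 Up and 1 Down. Efnb1 (0.07 ± 0.18) and Efnb3 (0.49 ± 0.69, mean level 10.5 normalized counts) missed the threshold in the authors' deposited table. The receptor gene Epha4 and the ligand gene Efna5 thus both passed, and no other listed Eph or ephrin gene did. They are 12.5 percent of the 16 listed Eph and ephrin genes, against 1.08 percent of all genes called.

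**Figure D2:**
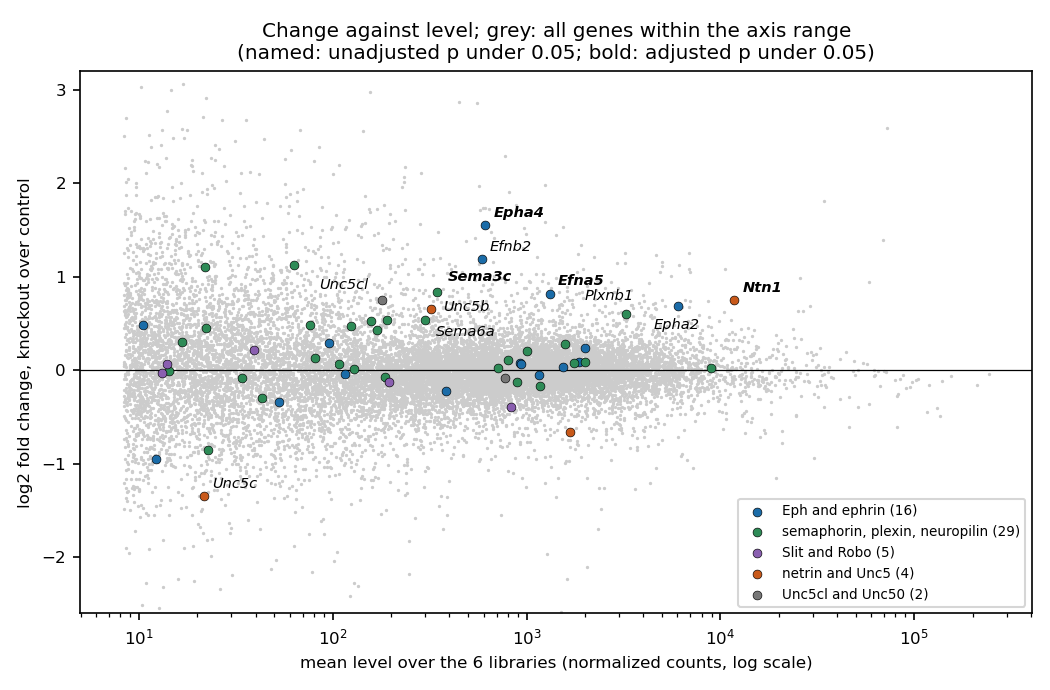
Log2 fold change, knockout over control, against the mean level over the 6 libraries on a log axis, with all genes in grey and guidance genes coloured by family. Epha4 and Efnb2 have the largest changes among guidance genes above a mean level of 100, and Ntn1 is the most abundant of the called genes.

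Of 29 semaphorin, plexin and neuropilin genes, 1 rose and 0 fell, or 3.45 percent called, against 1.08 percent of all genes. Sema3c, a secreted semaphorin read by neuropilins with plexin-D1 or plexin-A receptors and best known from heart outflow tract formation, lies on chromosome 5 between positions 17574281 and 17730268 (plus strand). Its log2 fold change was 0.84 ± 0.24 (SE) per the authors' deposited table, with 347 normalized counts on average and a DESeq2 adjusted p of 0.0444, or 179 percent of control with an interval of 129 to 249 percent. This is a call close to the threshold. It was lost under the correction of scores for inflation (adjusted p = 0.121) and when the trend of the score with transcript length was removed (adjusted p = 0.0921). Of the other 6 secreted semaphorins, 0 had an unadjusted DESeq2 p under 0.05. Sema3f, the secreted semaphorin with the highest level per transcript length and a ligand of neuropilin-2, had -0.13 ± 0.19 in the authors' deposited table. Sema3e, which signals through plexin-D1 without a neuropilin, had 1.11 ± 0.74 and Sema3b -0.86 ± 0.48 in the authors' deposited table, at mean levels of 21.9 and 22.7 normalized counts. Sema3a (-0.01 ± 0.62), Sema3d (-0.08 ± 0.44) and Sema3g (0.02 ± 0.29) lay close to 0 in the authors' deposited table. A rise as large as the estimate for Sema3c lies within the interval of Sema3a (43.0 to 229 percent of control) and outside those of Sema3g (67.9 to 151 percent) and Sema3d (51.9 to 172 percent). The intervals of Sema3g and Sema3d still overlap that of Sema3c, and differences between these genes were not tested.

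The 12 membrane-bound semaphorins gave 0 calls by DESeq2, with 1 higher at an unadjusted p under 0.05 (8.33 percent, beside 5.23 percent of all genes). That gene, Sema6a, a transmembrane ligand of plexin-A2 and plexin-A4, had an estimate of 0.54 ± 0.22 (log2) per the authors' deposited table (DESeq2 adjusted p = 0.329). The 4 most abundant members per transcript length belong to class 4. Sema4c (0.08 ± 0.16) and Sema4d (0.08 ± 0.17), both ligands of plexin-B receptors, had estimates near 0 in the authors' deposited table, as did Sema4a (-0.17 ± 0.18) and Sema4b (0.03 ± 0.21). The narrow intervals of Sema4c (85.0 to 132 percent of control) and Sema4d (83.5 to 134 percent) lie below the estimates of the called genes. They overlap the intervals of Ntn1 and Sema3c, and differences between these genes were not tested. Sema4g (0.53 ± 0.33), Sema6c (0.43 ± 0.27) and the lipid-anchored Sema7a (0.48 ± 0.38) had positive estimates that missed the threshold in the authors' deposited table. The remaining members, Sema4f, Sema5a, Sema6b and Sema6d, lay between -0.30 and 0.30 there.

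The 8 plexin genes gave 0 calls by DESeq2, although each had a positive log2 fold change, with a median of 0.37. Plxnb1, the receptor gene for Sema4d, had 0.60 ± 0.27 in the authors' deposited table (DESeq2 adjusted p = 0.456, unadjusted p = 0.0279), or 152 percent of control with an interval of 105 to 220 percent. Plxnb2, whose mean level of 8968 normalized counts was the highest of the plexins, also per transcript length, had 0.03 ± 0.14 in the authors' deposited table, with an interval of 84.0 to 124 percent. Plxnd1, a receptor gene for Sema3e and Sema3c, had 0.54 ± 0.33, and Plxnc1, the receptor gene for Sema7a, had 1.13 ± 0.67, neither of which passed in the authors' deposited table. The plexin-A genes ran from 0.13 ± 0.37 for Plxna2 to 0.45 ± 0.49 for Plxna4 in the authors' deposited table, with Plxna1 (0.20 ± 0.17) and Plxna3 (0.28 ± 0.16) between them. Plexin transcripts are long, and the score differed with length. For the 16250 genes of known length, the median score of change (log2 fold change over SE) was 0.46 in the longest of 20 length bins and -0.28 in the shortest. The median plexin transcript had 7976 bases against 2781 over all genes, and 6 of the 8 plexins had a positive score after the trend was removed. Over all 56 guidance genes 32 were positive then, in place of 38, against 8120 of the 16250 genes of known length. The part of length in the sign of the plexins was not tested. The neuropilin genes Nrp1 (0.11 ± 0.99) and Nrp2 (0.47 ± 0.30), co-receptors for class 3 semaphorins, missed the threshold in the authors' deposited table.

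Slit and Robo genes gave 0 calls, and 0 of 5 had an unadjusted DESeq2 p under 0.05. Beside 1.08 and 9.07 percent of all genes, a list this short would often give 0 for both. Robo1, the Slit receptor known from the mammary duct, was closest, with -0.39 ± 0.20 (log2) per the authors' deposited table (DESeq2 adjusted p = 0.554, unadjusted p = 0.0517) and an interval of 58.0 to 100.2 percent of control. The ligand gene Slit2 had -0.12 ± 0.92 in the authors' deposited table, and its interval of 26.1 to 322 percent allows a change in either direction. Slit3 (-0.03 ± 0.78) and Robo2 (0.06 ± 0.74) were at mean levels of 13.2 and 13.9 normalized counts in the authors' deposited table. Robo4, an endothelial Robo, had 0.21 ± 0.38 per the authors' deposited table, for a mean level of 39.2 normalized counts.

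Ntn1, which encodes netrin-1, rose and had the highest level of the guidance genes per transcript length. It lies on chromosome 11 between positions 68209364 and 68400823 (minus strand), and its mean level was 11738 normalized counts. Its log2 fold change was 0.75 ± 0.21 (SE) in the authors' deposited table (DESeq2 adjusted p = 0.0315), or 168 percent of control with an interval of 127 to 222 percent. This call too was lost under the correction of scores for inflation (adjusted p = 0.0923) and when the length trend was removed (adjusted p = 0.067). Ntn4, whose product is a netrin of basement membranes that binds laminin, had -0.66 ± 0.61 in the authors' deposited table (DESeq2 adjusted p = 0.852), with an interval of 27.7 to 144 percent. No test compared Ntn4 with Ntn1.

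The netrin receptor genes did not pass. Unc5b, a receptor for netrin-1 that carries a death domain, had an estimate of 0.66 ± 0.21 (log2) per the authors' deposited table (DESeq2 adjusted p = 0.115, unadjusted p = 0.0021), or 158 percent of control with an interval of 118 to 212 percent. Unc5c was the guidance gene with the lowest estimate, -1.35 ± 0.61 in the authors' deposited table (DESeq2 adjusted p = 0.456, unadjusted p = 0.0279). Its mean level was 21.7 normalized counts, and the authors' own call for it was Down. Unc5cl, whose product shares the intracellular part of the Unc5 receptors and activates NF-kB in human cells, had 0.76 ± 0.27 in the authors' deposited table (DESeq2 adjusted p = 0.219, unadjusted p = 0.0058). Unc50, the match by name alone, had -0.08 ± 0.17 in the authors' deposited table.

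Genes that carry these signals inside the cell or act as co-receptors were taken as 4 further lists, also chosen with earlier results of these data known. Of 33 measured partners of Eph and ephrin signalling, 1 rose and 0 fell, and the median log2 fold change was 0.01. That 1 call is 3.03 percent of the list, against 1.08 percent of all genes. At an unadjusted DESeq2 p under 0.05, 3 were higher and 2 lower, or 9.09 and 6.06 percent, beside the 5.23 and 3.83 percent of all genes given above. The rise was Chn2, a Rac-inactivating chimaerin, at 0.91 ± 0.26 in the authors' deposited table (DESeq2 adjusted p = 0.0405), and it was lost under the correction of scores for inflation (adjusted p = 0.113) but not with the length trend removed (adjusted p = 0.0349). The partners with the highest mean counts, not divided by length, were Adam10, a protease that sheds ephrins (-0.51 ± 0.26), and Sdcbp, the syntenin gene (0.04 ± 0.15), and they missed the threshold in the authors' deposited table. Of 33 measured partners of semaphorin and plexin signalling, 1 rose and 0 fell, again 3.03 percent called, with a median of 0.04. At that unadjusted p, 5 were higher and 2 lower (15.2 and 6.06 percent). The rise in that list was Fes, a tyrosine kinase that phosphorylates proteins of the semaphorin 3A pathway, at 0.75 ± 0.20 in the authors' deposited table (DESeq2 adjusted p = 0.0272), lost under that correction (adjusted p = 0.0817) but not with the length trend removed (adjusted p = 0.0235). Arhgef12, whose product binds plexin-B receptors (-0.06 ± 0.20), and the GTPase gene Rap1b (0.35 ± 0.17) had the highest mean levels of that list and missed the threshold in the authors' deposited table.

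Partners of Slit and netrin signalling gave 0 calls by DESeq2. Of 23 measured Slit and Robo partners, 4 had an unadjusted p under 0.05, all of them positive, and the median log2 fold change was 0.15. That is 17.4 percent, beside 5.23 percent of all genes that were higher at that p. The heparan sulfate carrier gene Sdc4 (0.12 ± 0.21) and Cap1, an actin regulator (-0.11 ± 0.15), had the highest mean levels in the authors' deposited table. Of 18 measured netrin, Dcc and Unc5 partners, 3 had an unadjusted DESeq2 p under 0.05, all of them positive (16.7 percent), with a median of 0.12. Maged1, an adaptor bound by Unc5 receptors (-0.27 ± 0.15), and the death-associated kinase gene Dapk1 (0.45 ± 0.19) led that list by level in the authors' deposited table.

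Precision set a few guidance genes apart. The SE of each gene was divided by the median SE of the 501 genes nearest in mean level, the gene itself included. That ratio was 5.46 for Nrp1, 3.82 for Slit2, 3.56 for Ntn4 and 3.12 for Ephb2. These 4 genes, 7.14 percent of the guidance genes, were above a ratio of 2, as were 1.62 percent of all genes. For the called genes the ratio was 1.86 for Epha4, 1.05 for Efna5, 1.15 for Sema3c and 1.15 for Ntn1, and it was 1.94 for Efnb2. Among the marker lists, 5 of 9 hormone-sensing luminal markers were above 2, with a median ratio of 3.45, and so were 4 of 8 measured lymphocyte markers. Luminal progenitor, basal, fibroblast, endothelial, pericyte, Schwann cell and nerve, and adipocyte markers had 0 above 2. The macrophage and myeloid list had 1, Ptprc at 3.39. Of the partner genes, Dscam (4.72) and Samd5 (3.86) were above 2. The table does not show which libraries the wide errors come from. The part of the hormone-sensing, lymphocyte or myeloid markers in the values of Nrp1, Slit2, Ntn4 and Ephb2 was not tested.

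**Figure D3:**
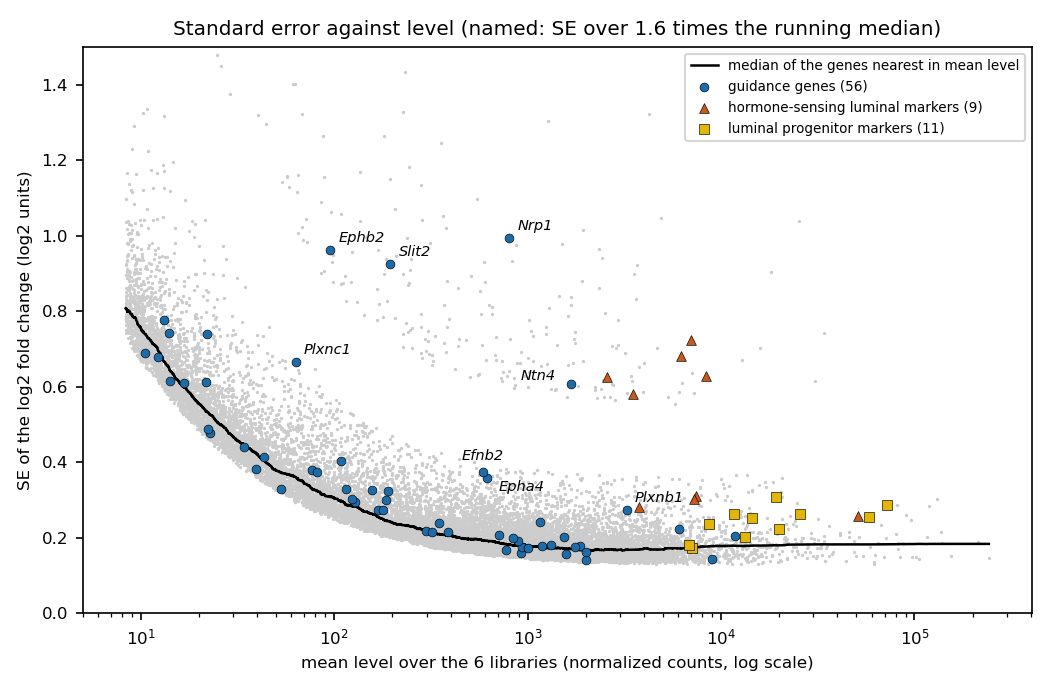
Standard error of the log2 fold change against the mean level over the 6 libraries (log axis), with all genes in grey, the running median of 501 genes as a line, guidance genes as circles and luminal markers as triangles and squares. Nrp1, Slit2, Ephb2 and Ntn4 stand in a band above the line together with 5 of the 9 hormone-sensing markers. This band is not particular to them, since 1.62 percent of all genes exceed 2 times the line, 4 of 8 measured lymphocyte markers included. The luminal progenitor markers lie below that band, at a median of 1.40 times the line.

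Levels could be compared between genes only per transcript length, as mean normalized counts per kb of the longest annotated transcript. Ntn1 stood highest at 1998 per kb, followed by Epha2 at 1548, Plxnb2 at 1380 and Efna1 at 1141. Below Unc50, Sema4c (514 per kb), Ephb4 (459) and Ntn4 (458) came next. The called genes Efna5 (326 per kb), Epha4 (96.9) and Sema3c (63.2) ranked 12, 24 and 26 of the 56. At the low end were Robo2 (1.62 per kb), Plxna4 (1.72) and Unc5c (2.25). The ligand genes of the most abundant receptors were themselves present, Efna1 beside Epha2 and Sema4c and Sema4d (394 per kb) beside Plxnb2. No spread over libraries is given for these levels, so neighbours in the order are not shown to differ.

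**Figure D4:**
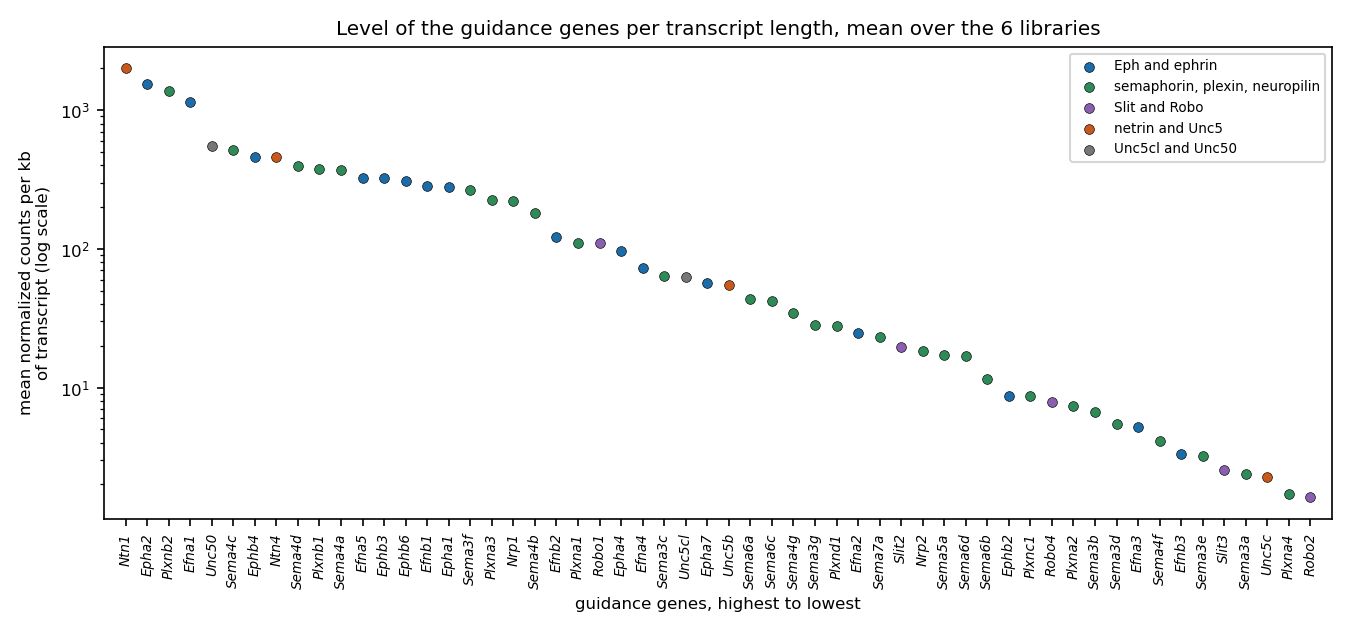
Mean normalized counts per kb of transcript for the 56 guidance genes, log axis, from highest to lowest and coloured by family, with no error bars because the table gives none for levels. Ntn1, Epha2, Plxnb2 and Efna1 lie above 1000 per kb, and the Robo and Slit genes other than Robo1 lie in the lower part.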

How the data were processed

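Polyadenylated RNA of 3 Ocln knockout and 3 control libraries was sequenced, per the labels. The authors' deposited table gives the log2 fold change of 1 comparison, its SE, the p-value and adjusted p-value, the Wald score, their own call and a mean level (a signal, the mean normalized count of the libraries). DESeq2 and mm10 come from the submitters' processing notes. The aligner, counter, annotation and model are not given in these sources. Direction follows the table's name. Score and fold change divided by SE differed by at most 2.58e-07, and whether fold changes were shrunken is not given.

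Calls use the deposited adjusted p under 0.05 over 16701 genes, with no new test per gene, since values per library were not used here and depth is unknown. Alternatives were computed over the whole table with Python 3.11.15, numpy 2.4.6, scipy 1.17.1 and pandas 2.3.3. They were adjusted p under 0.01, a change of at least 1 (log2) in size, a mean level of at least 50, the authors' calls, scores corrected for their inflation (factor 1.18, applied as its square root), and scores less their median in 20 bins of transcript length. Of these alternatives, just the inflation and length corrections were tried on simulated data. Positions and lengths come from GENCODE M21 (GRCm38, the build of mm10), and 97.3 percent of genes had a length. Members and lists were chosen with earlier results of these data known. Any member could be named, with full statistics at an unadjusted p under 0.05, the highest levels and the largest changes of each role. Of partner lists, called genes and the 2 highest levels were named. The partners Dscam and Samd5 and the markers Oxtr, Dcn, S100a8 and Ptprc were named after their values were seen.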

Additional observations from a re-analysis of the deposited data

How the results depend on the processing

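Epha4 and Efna5 kept their calls at an adjusted p under 0.01, after division by the inflation and after removal of the length trend, so 2 guidance genes rose under each of these 3 settings in place of 4. With a change of at least 1 (log2) required, 1 rose (Epha4). The authors' own calls hold 2 higher (Epha4 and Efnb2) and 1 lower (Unc5c), where the adjusted p gives 0 lower. All 4 passed when genes under a mean level of 50 were left out. Of the partner genes 2 rose, and 0 did under the stricter p, the fold minimum, the authors' calls or the division by inflation, while the authors' calls hold 1 lower. Over all genes 181 were called, against 107, 117, 466 and 119 under those settings. Among the partner genes 3 rose when genes under a mean level of 50 were left out, and 2 with the length trend removed. Over all genes 178 and 167 were called in these cases. No paired analysis was possible because the table holds no values per library, and leaving out a library or another normalization was not run for that reason. Low levels limit Efna3, Efnb3, Slit3, Robo2 and most class 3 semaphorins.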

Other observations

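Several guidance genes lie in clusters. On chromosome 5 the genes Sema3d, Sema3a, Sema3e and Sema3c follow each other, with gaps of 0.536, 0.423 and 3.32 Mb, and their log2 fold changes in the authors' deposited table were -0.08 ± 0.44, -0.01 ± 0.62, 1.11 ± 0.74 and 0.84 ± 0.24 (SE), of which that of Sema3c passed. On chromosome 3 the ephrin genes Efna1, Efna3 and Efna4 lie 32.8 and 10.4 kb apart, with 0.09 ± 0.18, -0.95 ± 0.68 and -0.04 ± 0.33 in the authors' deposited table. Sema3b and Sema3f lie 72.3 kb apart on chromosome 9, at -0.86 ± 0.48 and -0.13 ± 0.19 in the authors' deposited table. Differences between neighbours were not tested. Sema4d, with 0.08 ± 0.17 in the authors' deposited table, is the sole listed guidance gene on chromosome 13, which carries Ocln, and lies 48.7 Mb from it.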
